A study of Rattus norvegicus with 30 samples.

Results

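The change of the effect of 20 µM chlorpromazine HCl on rat primary hepatocytes between 24 and 48 h of exposure was measured for every probe set of the array. For each probe set, the mean log2 signal of vehicle arrays was subtracted from that of treated arrays at 48 h, and the same difference at 24 h was subtracted from the result. This quantity is called the interaction here. It is also the 24 to 48 h change in treated cultures minus that in vehicle cultures, so either side can produce it. The comparison used 20 of the 30 arrays of the study, 5 in each of 4 groups, and the 10 arrays at 0.8 µM served for the spread, for the same comparison at the low dose and as an alternative reference. The groups were vehicle (1% DMSO) for 24 h, 20 µM for 24 h, vehicle for 48 h and 20 µM for 48 h. One vehicle array, replicate 2 of the 24 h group, carries 2hr in its title but a time entry of 24 hours. It was counted at 24 h. All groups shared the same source, which was frozen hepatocytes of male Sprague Dawley rats bought from a supplier, plated on collagen under Matrigel and dosed on day 3 of culture. Each array came from 1 well, and the labels do not give the number of donor animals, so p-values measure the spread between wells.

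Chlorpromazine is a phenothiazine antipsychotic and a cationic amphiphilic drug, a class of weak bases that gather in lysosomes. It is known in the clinic for injury that blocks bile flow. Hepatocytes in culture lose many transcripts of liver metabolism over days even without a drug, and P450 enzymes, transporters and conjugating enzymes are among those that move with culture age.

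The arrays were alike in brightness and 1 of them stood apart. Median signals ran from 378.9 to 447.6, and the mean correlation of an array with its group from 0.9403 to 0.9523. Over the 18014 probe sets above the dim threshold, which is a log2 signal of 8.07 taken from the 40th percentiles, 19 of the 20 arrays correlated better with their own group than with the other time of the same dose. The exception was vehicle replicate 5 at 24 h, at 0.9704 with its own group and 0.9709 with the 48 h vehicle arrays. Without it the number of probe sets called went from 191 to 252 higher and from 297 to 404 lower, and the calls of 3 genes of the rule for naming, Cyp7a1, Tubb5 and Stat2, changed. Array numbers ran through the 6 groups of the study in the same order 5 times, so the effects of group and of position in a run cannot be told apart. All 7 hepatocyte markers were above the dim threshold, and 0 of the 7 were called in the interaction (0 at an unadjusted p under 0.05 with limma). Over all genes tested, 1.01% were called higher, 1.49% lower and 14.6% had an unadjusted p under 0.05. For 7 genes a count of 0 is near these shares.

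The effect of 20 µM grew in size with time for most of the genes whose effect changed, and more interactions were called lower than higher. Of 31042 probe sets, 191 had a higher interaction (0.615%) and 297 a lower one (0.957%) at an adjusted p under 0.05. Among 14217 genes with 1 symbol, each represented by its brightest probe set, 143 were called higher (1.01%) and 212 lower (1.49%). These called genes had median interactions of 0.45 and -0.52 on the log2 scale, and 9 and 31 of them reached 1 in size. The effect was larger in size at 48 h than at 24 h for 328 of the 355 called genes (92.39%), against 59.81% of all genes. Single-time effects were called for many more genes, 2400 at 24 h (16.9%) and 3688 at 48 h (25.9%). For the gene lists below, the shares over all genes are 1.01% higher, 1.49% lower and 14.6% at an unadjusted p under 0.05 in limma. Without vehicle replicate 2 or 3 of 24 h or treated replicate 5 of 48 h, 127, 122 and 123 probe sets were higher. Without that vehicle replicate 2, whose title reads 2hr, 221 were lower, the fewest for any single array left out. With each array centred on its median, 72 probe sets were higher and 180 lower, a split of 28.57% to 71.43% against 39.14% to 60.86% as deposited. At 0.8 µM the same interaction was called for 9 probe sets (0.029%), all lower. Of the 31042 probe sets, 1895 had an unadjusted p under 0.05 in limma at 0.8 µM, against 3425 at 20 µM. The named genes among the 9 were Omd, Cflar, Cab39, C9, Cyp3a18, Sult1e1 and Cryab. The interactions of both doses subtract the same vehicle arrays, so their overlap is not read as a result. When 0.8 µM arrays took the place of vehicle in the 20 µM interaction, 38 probe sets were higher and 113 lower. The 0.8 µM cultures held drug as well, so this is another comparison, from which any change shared by both doses is subtracted.

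**Figure D1:**
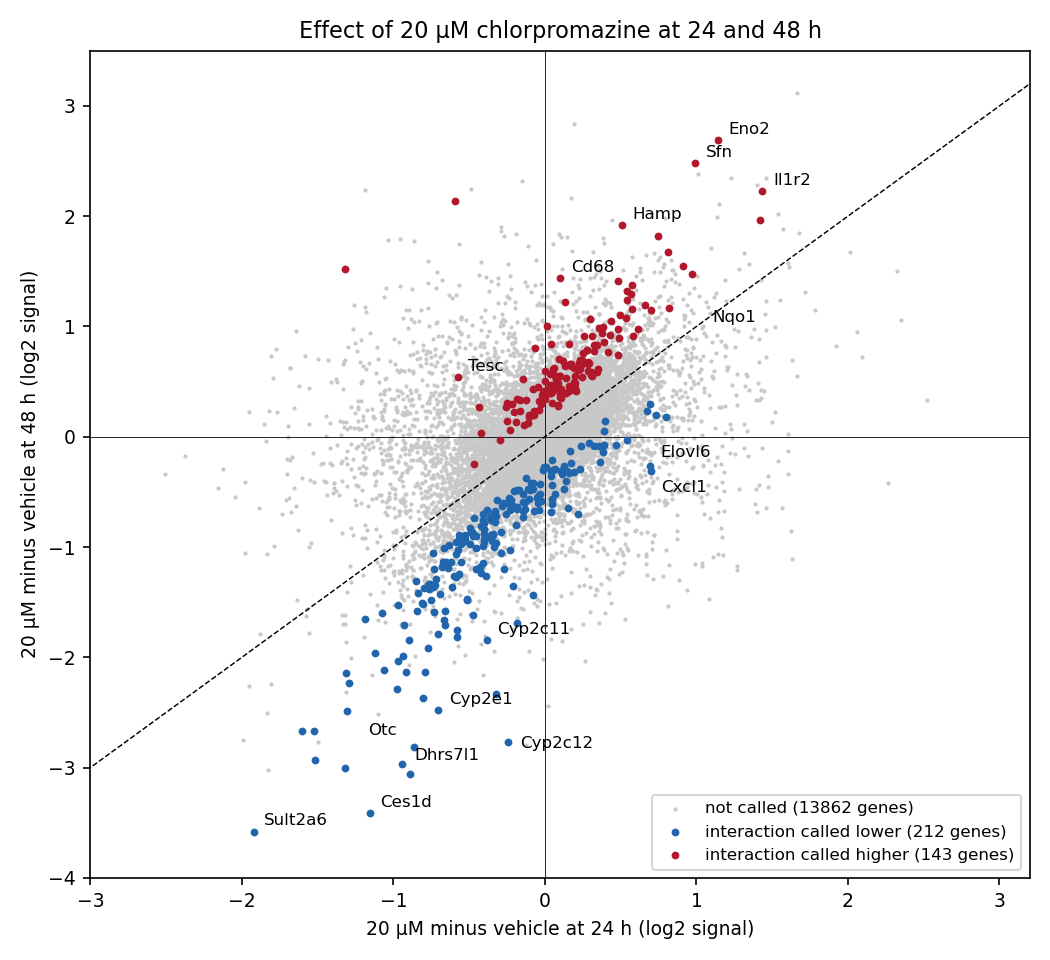
Effect of 20 µM chlorpromazine on each of 14217 genes at 24 h (horizontal axis) and 48 h (vertical axis), as differences of mean log2 signal from vehicle. Red and blue points are genes whose interaction was called higher (143) or lower (212), the dashed line marks equal effects, and most blue points lie below 0 on both axes.

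Both sides of the comparison took part. Among the 143 genes called higher, the change in treated cultures was the larger part for 75 and that in vehicle cultures for 68. For 103 of them the treated mean rose and the vehicle mean fell. Of the 212 called lower, the larger part lay in treated cultures for 113 and in vehicle cultures for 99. For 162 of them the treated mean fell and the vehicle mean rose. A call needs a large difference between these changes, which favours opposite directions. The share of genes with opposite directions was not counted over all genes. Over all genes the treated change was the larger for 47.79%. Of the genes called higher, 2 were dim and stand outside the rule for naming: Pla2g2a, a secreted phospholipase (2.73 ± 0.57), and Aff2 (2.84 ± 0.71), both chosen after their values were seen. Dhrs7l1, a dehydrogenase of the short-chain family, had most of its interaction in the treated arrays, where it fell by 2.29 against -0.27 in vehicle (adjusted p = 0.37). Sult2a6, a hydroxysteroid sulfotransferase, differed in the opposite way, since vehicle arrays rose by 1.43 and treated arrays differed by -0.23 (adjusted p = 0.7). Ces1d, a carboxylesterase, rose by 1.27 in vehicle and fell by 0.99 with 20 µM.

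**Figure D2:**
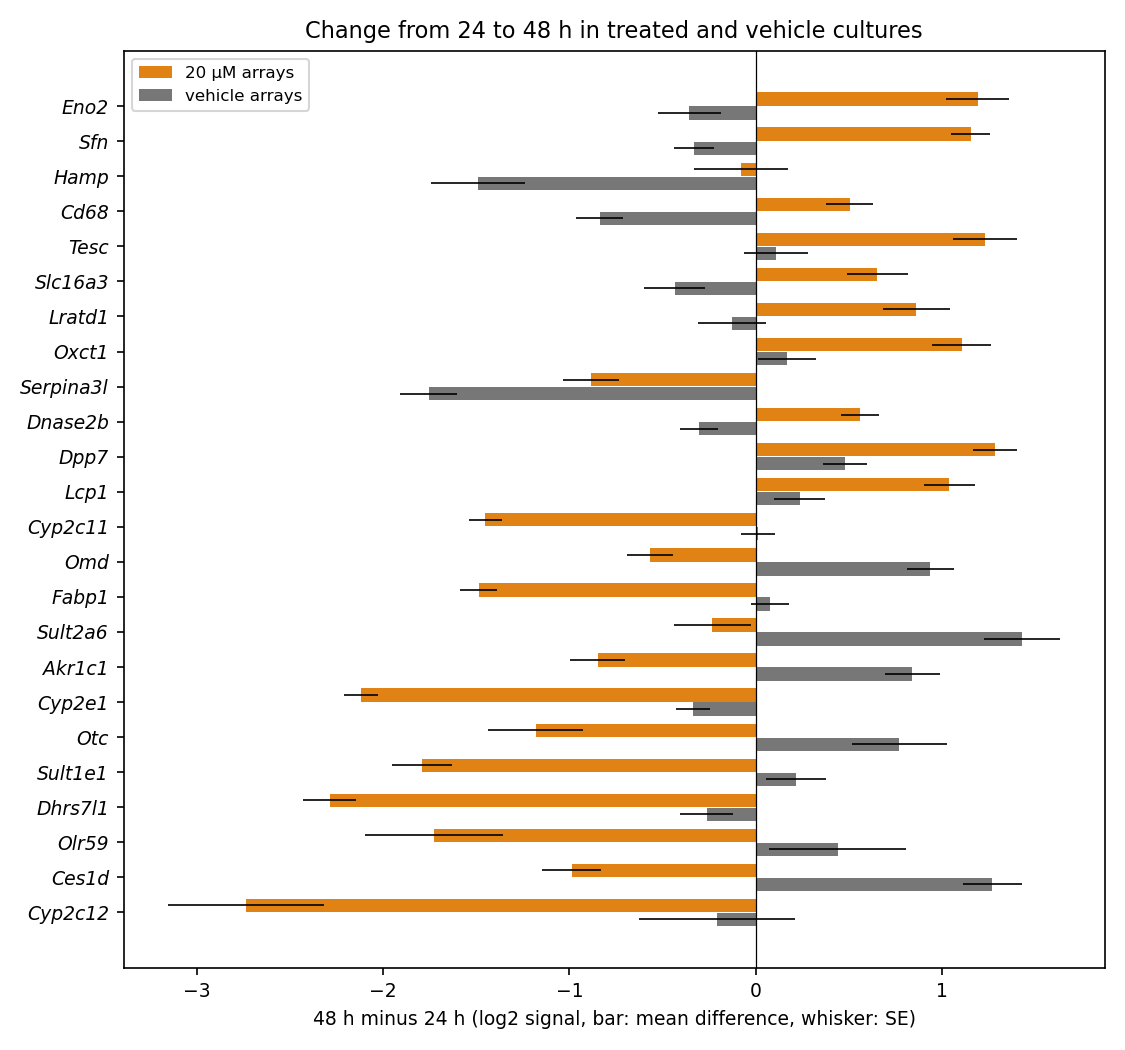
Change from 24 to 48 h in mean log2 signal (horizontal axis) for the 12 genes with the highest and the 12 with the lowest interaction. These are called genes above the dim threshold and not known by a locus number. Bars are 20 µM arrays (orange) and vehicle arrays (grey), with the SE as whiskers. In Hamp and Serpina3l the larger change was a fall in vehicle, in Cyp2e1 and Dhrs7l1 a fall in treated arrays, and Ces1d, Otc and Akr1c1 moved in opposite directions in vehicle and treated cultures.

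Constitutive P450 and flavin monooxygenase genes, the oxidising enzymes of the untreated liver, showed the highest share of lower calls among the 32 lists with vehicle as reference. Against the 0.8 µM arrays the fatty acid oxidation list came first, with 7 of 23 against 6 of 22. In the P450 and FMO list 11 of 22 measured genes were called lower and 0 higher (14 and 1 at an unadjusted p under 0.05), with a median interaction of -0.46 against 0.022 over all genes. The median effect of its members went from -0.35 at 24 h to -0.95 at 48 h. Cyp2e1, the ethanol-oxidising P450, fell on the vehicle arrays as well as on the treated ones. At 24 h Cyp2e1 had log2 signals of 13.12, 13.22, 13.14, 13.23 and 13.01 on the vehicle arrays and 12.32, 12.56, 12.29, 12.40 and 12.63 on the treated arrays. At 48 h Cyp2e1 was at 12.71, 12.77, 12.84, 12.95 and 12.76 with vehicle and 10.61, 10.24, 10.50, 10.12 and 10.15 with 20 µM. All treated arrays lay below all vehicle arrays at both times, and the gap widened from 0.70 to 2.48, an interaction of -1.78 ± 0.13 (SE, adjusted p = 3.05e-10).

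Cyp2c11 and Cyp2c12 are steroid hydroxylases that differ between the sexes in the adult rat, the first of them typical of males and the second of females. At 24 h Cyp2c11 had log2 signals of 13.88, 13.96, 13.97, 13.96 and 14.17 on the vehicle arrays and 13.67, 13.43, 13.73, 13.53 and 13.65 on the treated arrays. At 48 h Cyp2c11 was at 14.06, 13.99, 13.87, 14.01 and 14.05 with vehicle and 12.14, 12.17, 12.10, 12.28 and 12.07 with 20 µM. The vehicle arrays of both times overlapped, and the treated arrays at 48 h lay below all others. The interaction of Cyp2c11 was -1.46 ± 0.13 (SE, adjusted p = 1.54e-08). At 24 h Cyp2c12 had log2 signals of 10.80, 11.15, 10.75, 10.99 and 10.13 on the vehicle arrays and 10.50, 10.82, 10.34, 10.30 and 10.64 on the treated arrays. At 48 h Cyp2c12 was at 10.63, 10.48, 10.34, 10.94 and 10.39 with vehicle and 8.36, 8.81, 8.60, 5.04 and 8.13 with 20 µM. Treated and vehicle arrays of Cyp2c12 overlapped at 24 h and were separate at 48 h, with treated replicate 4 far below the other treated arrays. Its interaction was -2.53 ± 0.59 (SE, adjusted p = 0.0212), and without that array it was -1.84 (adjusted p = 0.00148).

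Cyp4a1, a fatty acid omega-hydroxylase, had effects of -1.52 at 24 h and -2.94 at 48 h and an interaction of -1.42 ± 0.22 (SE, adjusted p = 2.22e-04), with vehicle arrays that rose by 0.90. The other members called lower were Cyp2a2 (-1.15), Cyp2d2 (-0.35), Cyp2f4 (-0.79), Cyp2j4 (-0.75), Cyp4a3 (-0.69), Fmo1 (-0.61) and Fmo5 (-0.48). Of the 22 genes, 6 were called lower and 0 higher against the 0.8 µM arrays, 7 and 0 without the variance trend, and 9 and 0 with centred arrays. Measured against the 0.8 µM arrays instead of vehicle, Cyp2e1, Cyp2c11 and Cyp4a1 passed the threshold and Cyp2c12 (-1.33) did not. Probe sets of closely related P450, sulfotransferase and transporter genes may share transcripts, which was not tested.

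The promoters of Cyp2e1 and Cyp2c11, whose transcripts fell together, and of Cd63, a lysosomal membrane protein whose interaction was higher, are shown as examples of both directions. Each is the 250 bases before the RefSeq gene start in assembly GRCr8, 5′ to 3′ on the strand of the gene, with matches to TATAAA (the core of a TATA box) in capitals for the P450 genes and to CACGTG (an E-box) for Cd63. They lie at chr1:205269717-205269966 on the plus strand for Cyp2e1, chr1:246174966-246175215 on the plus strand for Cyp2c11 and chr7:1921894-1922143 on the plus strand for Cd63.
Cyp2e1: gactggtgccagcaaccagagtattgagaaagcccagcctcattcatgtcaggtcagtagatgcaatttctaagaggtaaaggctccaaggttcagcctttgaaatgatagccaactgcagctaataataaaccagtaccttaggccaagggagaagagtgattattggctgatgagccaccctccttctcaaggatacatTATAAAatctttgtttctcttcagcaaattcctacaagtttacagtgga
Cyp2c11: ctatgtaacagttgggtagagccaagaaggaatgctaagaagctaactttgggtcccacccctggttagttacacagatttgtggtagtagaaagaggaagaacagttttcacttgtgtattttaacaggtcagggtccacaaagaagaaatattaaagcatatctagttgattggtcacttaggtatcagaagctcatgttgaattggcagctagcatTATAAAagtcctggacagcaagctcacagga
Cd63: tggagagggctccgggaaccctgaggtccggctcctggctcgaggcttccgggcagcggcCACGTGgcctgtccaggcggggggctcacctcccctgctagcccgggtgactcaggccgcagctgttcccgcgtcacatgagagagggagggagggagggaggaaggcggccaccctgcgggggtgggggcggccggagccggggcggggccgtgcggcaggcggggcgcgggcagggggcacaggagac

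The TATAAA matches begin 49 bases before the start of Cyp2e1 and 31 bases before that of Cyp2c11, and the CACGTG match of Cd63 begins 190 bases before its start. On either strand of these 250 bases, TATAAA was found in 8 of 19 promoters of the constitutive P450 and FMO list (42.1%), 1 of 29 of the lysosomal list (3.45%), 1 of 12 of the proton pump list (8.33%) and 12.9% of all 33469 promoters. CACGTG was found in 1 of 19 (5.26%), 6 of 29 (20.7%) and 1 of 12 (8.33%) of the same lists and in 5.59% of all promoters. These letters do not overlap each other, and a match is a description of the sequence only.

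Targets of CAR and PXR, the nuclear receptors that sense drugs, were called in the lower direction only. Of this list 2 of 10 measured genes were called lower and 0 higher (5 and 0 at an unadjusted p under 0.05), with a median interaction of -0.41. Over all genes 1.49% were called lower and 1.01% higher, and 14.6% had an unadjusted p under 0.05 in limma. Cyp3a18, a steroid-oxidising P450, had effects of -0.79 at 24 h and -2.13 at 48 h and an interaction of -1.34 ± 0.098 (SE, adjusted p = 3.05e-10). Nr1i3, which codes for CAR itself, had an interaction of -0.47 ± 0.11 (SE, adjusted p = 0.0166) on effects of -0.73 at 24 h and -1.20 at 48 h. Among targets of the aryl hydrocarbon receptor 1 of 8 measured genes was called higher and 0 lower (1 and 0 at an unadjusted p under 0.05), with a median interaction of -0.16. The called member was Cyp1a2, the P450 of caffeine oxidation, with effects of 0.54 at 24 h and 1.07 at 48 h and an interaction of 0.54 ± 0.10 (SE, adjusted p = 0.00272). For Cyp1a2 the vehicle arrays fell by 1.07 and the treated arrays fell by 0.54, so the larger effect at 48 h stands on a steeper fall in vehicle. With 0.8 µM in place of vehicle, Cyp3a18 passed the threshold and Nr1i3 (-0.30) and Cyp1a2 (0.098) did not.

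Conjugating and hydrolysing enzymes held some of the lowest interactions of the called genes. In this list 5 of 23 measured genes were called lower and 1 higher (7 and 1 at an unadjusted p under 0.05), with a median interaction of -0.043. At 24 h Ces1d had log2 signals of 12.22, 11.93, 12.003, 12.43 and 13.06 on the vehicle arrays and 11.08, 11.06, 11.23, 11.15 and 11.32 on the treated arrays. At 48 h Ces1d was at 13.58, 13.82, 13.51, 13.62 and 13.44 with vehicle and 10.20, 10.28, 10.31, 10.05 and 10.06 with 20 µM. The treated arrays lay below the vehicle arrays at both times, while vehicle rose and treated fell, and the interaction of Ces1d was -2.26 ± 0.23 (SE, adjusted p = 1.79e-07). In fold terms its treated signal was 2.23-fold below vehicle at 24 h and 10.7-fold below at 48 h. Vehicle replicate 5 of 24 h was the highest of its group, and without it the interaction was -2.44. With each of the 20 arrays left out in turn, it ranged from -2.44 to -2.157.

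Sult1e1, which sulfates estrogens, had effects of -0.33 at 24 h and -2.33 at 48 h and an interaction of -2.01 ± 0.23 (SE, adjusted p = 2.33e-06), and Sult2a6 had -1.92 at 24 h and -3.58 at 48 h and an interaction of -1.66 ± 0.29 (SE, adjusted p = 0.00112). Aadac, a microsomal esterase, had effects of -1.29 at 24 h and -2.23 at 48 h, with an interaction of -0.94 ± 0.20 that lay in vehicle, where it rose by 0.98. Akr1c1, an aldo-keto reductase of steroids outside the list, had -1.32 at 24 h and -3.01 at 48 h and an interaction of -1.69 ± 0.21 (SE, adjusted p = 9.61e-06). The remaining called members were Gstp1 (0.37) and Nat1 (-0.52), of which Gstp1, a glutathione transferase, was the only one higher. Of the 23 genes of this list, 1 was called lower and 0 higher against the 0.8 µM arrays, 4 and 1 without the variance trend, and 5 and 0 with centred arrays. Taken against the 0.8 µM arrays, Ces1d and Akr1c1 passed the threshold and Sult1e1 (-0.82), Sult2a6 (-0.78) and Aadac (-0.70) did not.

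Dhrs7l1 and Olr59 completed the 4 called genes with the lowest interactions above the dim threshold, beside Cyp2c12 and Ces1d. At 24 h Dhrs7l1 had log2 signals of 11.20, 11.12, 11.44, 11.37 and 11.31 on the vehicle arrays and 10.23, 10.40, 10.40, 10.31 and 10.38 on the treated arrays. At 48 h Dhrs7l1 was at 10.71, 11.22, 11.08, 11.04 and 11.05 with vehicle and 7.79, 8.10, 8.34, 7.55 and 8.49 with 20 µM. The 48 h treated arrays of Dhrs7l1 lay below all others by more than 1 log2 unit, and its interaction was -2.02 ± 0.20 (SE, adjusted p = 1.76e-07). At 24 h Olr59 had log2 signals of 9.68, 9.93, 9.48, 9.37 and 10.47 on the vehicle arrays and 8.73, 8.46, 9.46, 8.51 and 9.31 on the treated arrays. At 48 h Olr59 was at 10.48, 10.59, 10.36, 10.28 and 9.41 with vehicle and 7.82, 6.45, 6.51, 8.84 and 6.24 with 20 µM. Olr59, annotated as an olfactory receptor, had treated and vehicle arrays that overlapped at 24 h and were separate at 48 h. Its interaction was -2.16 ± 0.52 (SE, adjusted p = 0.0258), with a wide spread among the treated arrays. Omd, which codes for the proteoglycan osteomodulin, had effects of -0.19 at 24 h and -1.69 at 48 h and an interaction of -1.51 ± 0.18 (SE, adjusted p = 3.53e-06). In the fit with 0.8 µM as reference, Dhrs7l1 passed the threshold and Olr59 (-2.02) and Omd (-0.35) did not. Leaving out single arrays ended the call of Olr59 (8 of the 20 arrays, adjusted p up to 0.0629).

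A set of 4 uptake transporters of the sinusoidal membrane was further below vehicle at 48 h than at 24 h. Among hepatocyte transporters 4 of 21 measured genes were called lower and 0 higher (10 and 0 at an unadjusted p under 0.05), with a median interaction of -0.18, and those called were Slc10a1 (-1.18), Slco1a1 (-1.36), Slco1a4 (-0.94) and Slco1b2 (-1.14). At 24 h Slc10a1 had log2 signals of 13.09, 13.11, 13.27, 13.31 and 13.39 on the vehicle arrays and 11.96, 12.10, 11.87, 11.83 and 11.87 on the treated arrays. At 48 h Slc10a1 was at 13.31, 13.67, 13.50, 13.50 and 13.47 with vehicle and 11.36, 11.30, 10.98, 10.79 and 10.57 with 20 µM. Slc10a1 imports bile acids with sodium, and its treated arrays lay below vehicle at both times and fell again between them. Its interaction was -1.18 ± 0.16 (SE, adjusted p = 4.81e-05), on effects of -1.31 at 24 h and -2.49 at 48 h. The organic anion transporter Slco1a1 was at -0.077 at 24 h (adjusted p = 0.855) and fell at 48 h (-1.43), with an interaction of -1.36 ± 0.22 (SE, adjusted p = 4.70e-04). Slco1b2 and Slco1a4, of the same family, had interactions of -1.14 ± 0.22 and -0.94 ± 0.20. Of the 21 genes, 1 was called lower and 0 higher against the 0.8 µM arrays, 4 and 0 without the variance trend, and 4 and 0 with centred arrays. Relative to 0.8 µM rather than vehicle, Slc10a1 passed the threshold and Slco1a1 (-0.67), Slco1b2 (-0.66) and Slco1a4 (-0.062) did not.

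In bile acid synthesis the called genes were Baat, Slc27a5, Slc27a2 and Hsd17b4. Of this list 4 of 15 measured genes were called lower and 0 higher (7 and 1 at an unadjusted p under 0.05), with a median interaction of -0.23. Baat, which joins bile acids to glycine or taurine, had effects of -0.58 at 24 h and -1.76 at 48 h and an interaction of -1.18 ± 0.25 (SE, adjusted p = 0.00851). Slc27a5, the bile acid CoA ligase, had effects of -0.93 at 24 h and -1.99 at 48 h and an interaction of -1.05 ± 0.22 (SE, adjusted p = 0.0081). The peroxisomal enzymes Slc27a2 and Hsd17b4, which also serve fatty acids, had smaller interactions of -0.45 ± 0.11 and -0.33 ± 0.083.

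At 24 h Cyp7a1 had log2 signals of 10.73, 10.37, 10.39, 10.49 and 11.73 on the vehicle arrays and 9.36, 9.43, 9.25, 8.87 and 9.34 on the treated arrays. At 48 h Cyp7a1 was at 11.71, 12.13, 11.48, 11.90 and 11.55 with vehicle and 8.85, 9.11, 9.19, 9.32 and 8.49 with 20 µM. Cyp7a1, the rate-limiting enzyme of the pathway, fell at both times (-1.50 and -2.77), and its treated arrays overlapped between the times while vehicle rose by 1.01. The interaction was -1.27 ± 0.36 (SE, adjusted p = 0.0658). Without vehicle replicate 5 of 24 h, the highest of its group, it was -1.52 and past the threshold (adjusted p = 0.00644), as it was under 5 of the 14 other settings tried. Cyp8b1, the sterol hydroxylase of cholic acid synthesis, had effects of -1.81 at 24 h and -2.24 at 48 h and an interaction of -0.43 ± 0.13 (SE, adjusted p = 0.104). Of the 15 genes of the list, 4 were called lower and 0 higher against the 0.8 µM arrays, 2 and 0 without the variance trend, and 2 and 0 with centred arrays. Measured against the 0.8 µM arrays instead of vehicle, Slc27a5, Slc27a2 and Hsd17b4 passed the threshold and Baat (-0.90) did not. The call of Slc27a2 (vehicle 24 h replicate 2, vehicle 24 h replicate 3, treated 24 h replicate 3 and treated 48 h replicate 5, adjusted p up to 0.061) and Hsd17b4 (12 of the 20 arrays, adjusted p up to 0.0877) was lost when single arrays were left out. Cyp8b1, not called with vehicle as reference, passed against the 0.8 µM arrays at -0.73 (adjusted p = 0.00412), and also without treated replicate 3 of 24 h, at -0.50 (adjusted p = 0.047).

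Many fatty acid oxidation genes and targets of PPARalpha, the fatty acid sensor that drives them, were further below vehicle at 48 h than at 24 h. In this list 9 of 23 measured genes were called lower and 0 higher (12 and 0 at an unadjusted p under 0.05), with a median interaction of -0.29. The median change from 24 to 48 h was 0.21 in vehicle and -0.11 in treated cultures. Fabp1, the fatty acid binding protein of the liver, had effects of -0.81 at 24 h and -2.37 at 48 h and an interaction of -1.56 ± 0.14 (SE, adjusted p = 2.47e-08), nearly all of it in treated cultures. Ehhadh, a peroxisomal beta-oxidation enzyme, had an interaction of -1.08 ± 0.25 (SE, adjusted p = 0.0186). Angptl4, a secreted lipase inhibitor, had one of -1.07 ± 0.18 (SE, adjusted p = 7.73e-04). For Vnn1, a pantetheinase, the vehicle arrays rose by 1.08 and the treated arrays differed by 0.039 (adjusted p = 0.96), and the interaction was -1.05 ± 0.22. The other called members were Acaa2 (-0.50), Pdk4 (-0.96), Ech1 (-0.48), Decr1 (-0.37) and Etfdh (-0.33). With 0.8 µM in place of vehicle, Fabp1 and Angptl4 passed the threshold and Ehhadh (-0.91) and Vnn1 (-0.78) did not. Of the 23 genes of the list, 7 were called lower and 0 higher against the 0.8 µM arrays, 7 and 0 without the variance trend, and 6 and 0 with centred arrays.

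The genes called in amino acid breakdown and in the urea cycle were all lower. Of amino acid catabolism genes 6 of 35 measured genes were called lower and 0 higher (13 and 1 at an unadjusted p under 0.05), with a median interaction of -0.18, and those called were Tdo2 (-0.34), Gldc (-0.75), Bhmt (-0.46), Cth (-0.69), Kynu (-0.57) and Hao1 (-0.71). Gldc belongs to the glycine cleavage system, Cth makes cysteine from cystathionine and Kynu acts in tryptophan breakdown, as does Tdo2. In the urea cycle list 1 of 10 measured genes was called lower and 0 higher (1 and 1 at an unadjusted p under 0.05), with a median interaction of 0.02. The shares over all genes were 1.49% lower, 1.01% higher and 14.6% at an unadjusted p under 0.05 in limma. At 24 h Otc had log2 signals of 10.81, 10.68, 10.71, 11.01 and 11.08 on the vehicle arrays and 10.28, 9.999, 10.09, 9.52 and 10.08 on the treated arrays. At 48 h Otc was at 11.62, 11.67, 11.51, 11.77 and 11.57 with vehicle and 9.41, 9.13, 9.12, 9.33 and 7.07 with 20 µM. Otc, ornithine transcarbamylase, lay lower in treated arrays at both times without overlap, and treated replicate 5 at 48 h lay far below the rest. Its interaction was -1.95 ± 0.36 (SE, adjusted p = 0.00226), and -1.52 (adjusted p = 3.39e-06) without that array. Of the 35 genes of amino acid catabolism, 1 was called lower and 0 higher against the 0.8 µM arrays, 4 and 0 without the variance trend, and 4 and 0 with centred arrays.

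At 24 h Cps1 had log2 signals of 16.26, 16.33, 16.45, 16.60 and 16.23 on the vehicle arrays and 16.04, 16.02, 16.19, 16.22 and 16.38 on the treated arrays. At 48 h Cps1 was at 16.33, 16.06, 16.40, 16.39 and 16.39 with vehicle and 16.33, 16.11, 15.997, 16.07 and 16.08 with 20 µM. Cps1, which catalyses the first step of the cycle, overlapped between all groups, with an interaction of 0.006 ± 0.13 (SE, adjusted p = 0.997) whose sign turned under other scalings (-0.011 with centred arrays, -0.073 with quantile normalization). The gluconeogenic enzyme Pc had effects of -1.08 at 24 h and -1.60 at 48 h and an interaction of -0.53 ± 0.093 (SE, adjusted p = 0.00117). Pygl, liver glycogen phosphorylase, had the opposite course, with effects of -0.47 at 24 h and -0.25 at 48 h and an interaction of 0.22 ± 0.054 (SE, adjusted p = 0.0289). In the list of gluconeogenesis and glycogen 1 of 10 measured genes was called lower and 1 higher (4 and 1 at an unadjusted p under 0.05), with a median interaction of -0.15. Taken against the 0.8 µM arrays, Otc (-1.49), Gldc (-0.32), Hao1 (-0.27), Cth (-0.37), Kynu (-0.36), Pc (-0.33) and Pygl (0.14) did not pass the threshold. Without single arrays the call was lost for Pygl (8 of the 20 arrays, adjusted p up to 0.0652).

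Secreted plasma proteins held called genes in both directions, among them Hamp with 1 of the highest interactions. Of this list 5 of 40 measured genes were called lower and 1 higher (10 and 1 at an unadjusted p under 0.05), with a median interaction of -0.066, against 1.49% lower and 1.01% higher over all genes. Klkb1, plasma prekallikrein, had effects of -1.53 at 24 h and -2.67 at 48 h and an interaction of -1.14 ± 0.19 (SE, adjusted p = 5.16e-04). The complement components C5 and C9 had interactions of -0.66 ± 0.099 and -0.47 ± 0.11, and Apoc2 and the clotting factor F9 were also lower (-0.29 and -0.37). At 24 h Alb had log2 signals of 16.59, 16.46, 16.77, 17.05 and 16.64 on the vehicle arrays and 16.34, 16.26, 16.64, 16.81 and 17.01 on the treated arrays. At 48 h Alb was at 16.54, 16.33, 16.58, 16.77 and 16.60 with vehicle and 16.71, 16.13, 16.51, 16.64 and 16.45 with 20 µM. Alb, albumin, overlapped between all groups, with an interaction of 0.016 ± 0.20 (SE, adjusted p = 0.993) whose sign turned with centred arrays (-0.001) and quantile normalization (-0.042).

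At 24 h Hamp had log2 signals of 13.10, 13.55, 13.79, 13.54 and 12.01 on the vehicle arrays and 13.48, 13.78, 13.65, 13.86 and 13.75 on the treated arrays. At 48 h Hamp was at 11.88, 11.38, 11.78, 11.73 and 11.77 with vehicle and 13.41, 13.70, 13.68, 13.26 and 14.07 with 20 µM. Hamp codes for hepcidin, the hormone that restrains iron release into blood. Its treated arrays stayed level between the times, at means of 13.7 and 13.6 (SD 0.15 and 0.31, n = 5), while the vehicle arrays fell by 1.49 to below all others. The effect was 0.51 at 24 h (adjusted p = 0.247) and 1.92 at 48 h, an interaction of 1.41 ± 0.36 (SE, adjusted p = 0.035). Vehicle replicate 5 of 24 h lay near the 48 h arrays at 12.01, and without it the interaction was 1.71 (adjusted p = 8.72e-04). Serpina3l, a serine protease inhibitor, had a like course, in that the vehicle arrays fell by 1.76 and the treated arrays fell by 0.88, with an interaction of 0.87 ± 0.22. In the fit with 0.8 µM as reference, Klkb1 passed the threshold and C5 (-0.38), C9 (0.15), Hamp (1.41) and Serpina3l (0.46) did not. Leaving out single arrays ended the call of C9 (vehicle 48 h replicate 2, vehicle 24 h replicate 4 and treated 48 h replicate 4, adjusted p up to 0.0521), Hamp (11 of the 20 arrays, adjusted p up to 0.0866) and Serpina3l (9 of the 20 arrays, adjusted p up to 0.067).

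**Figure D3:**
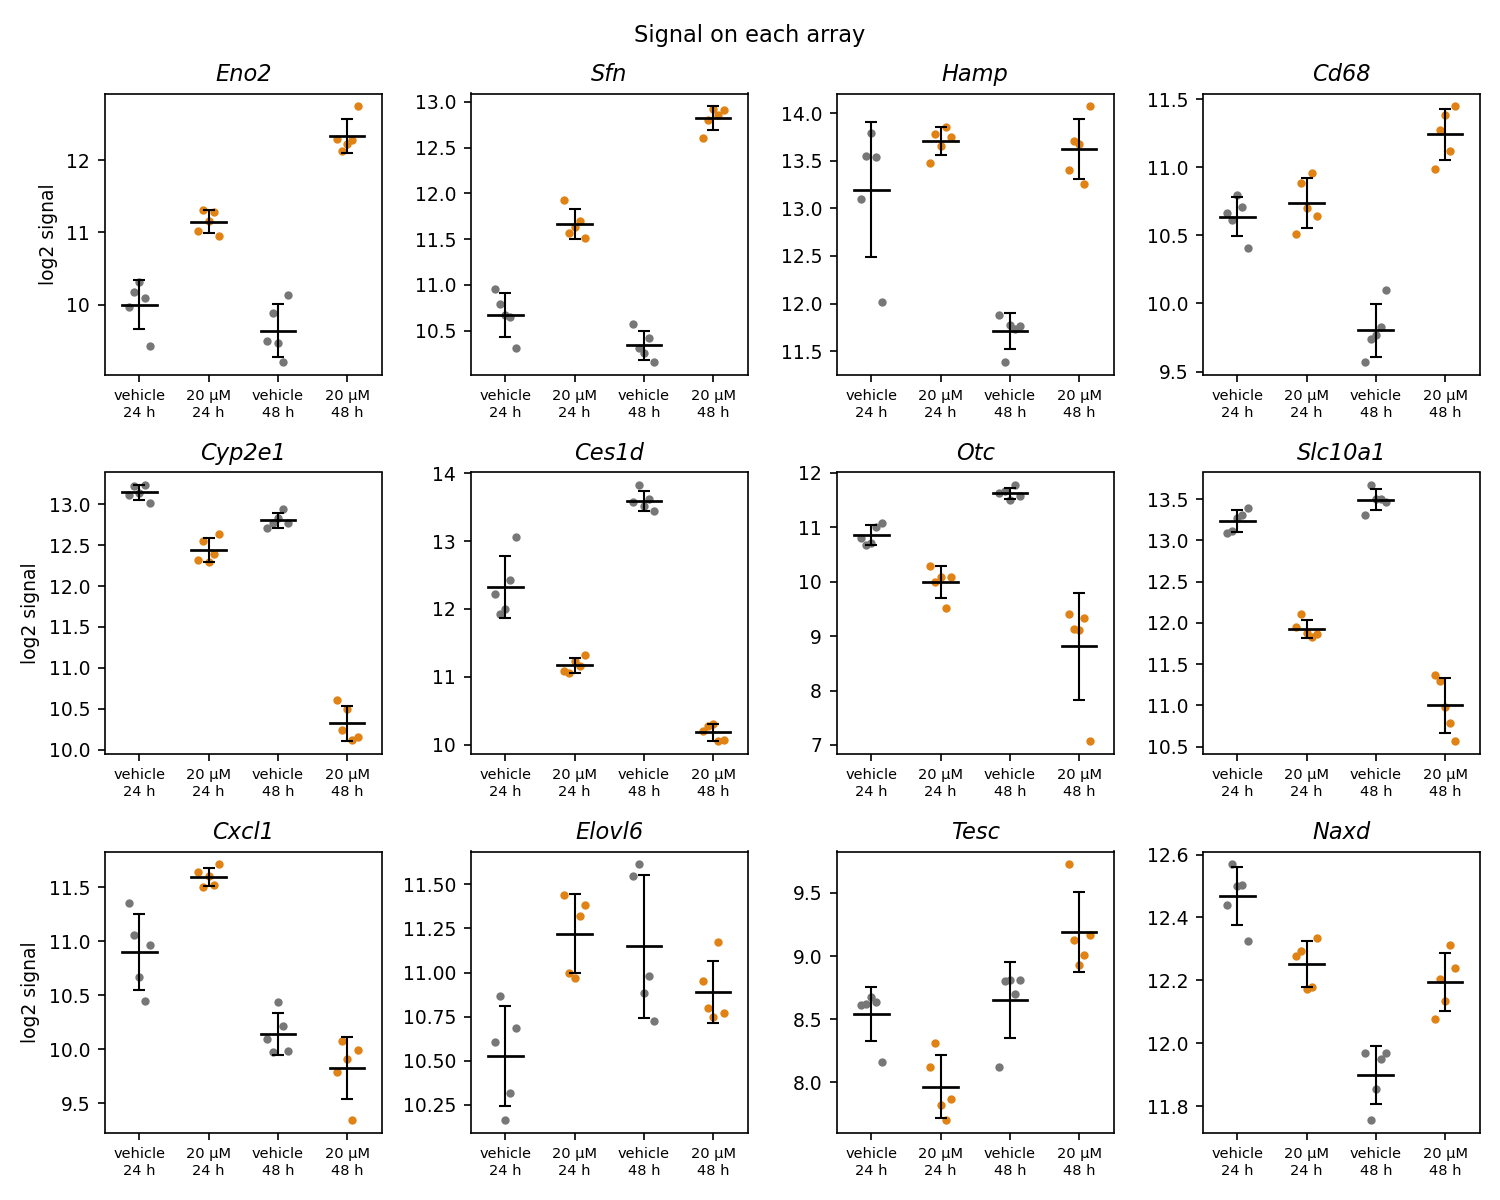
Log2 signal on every array for 12 genes in the 4 groups, grey for vehicle and orange for 20 µM, with the mean and SD (n = 5) in black. The upper row shows genes called higher and the middle row genes called lower. The lower row shows 2 genes above vehicle at 24 h but not called at 48 h (Cxcl1, Elovl6) and 2 whose effect changed sign (Tesc, Naxd).

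Glycolytic and hypoxia-responsive genes were called in the higher direction only. Eno2 had the highest interaction of the called genes above the dim threshold, those known by a locus number left aside. In this list 5 of 21 measured genes were called higher and 0 lower (11 and 0 at an unadjusted p under 0.05), with a median interaction of 0.22. At 24 h Eno2 had log2 signals of 9.98, 10.18, 10.32, 10.09 and 9.44 on the vehicle arrays and 11.03, 11.31, 11.16, 11.28 and 10.95 on the treated arrays. At 48 h Eno2 was at 9.50, 9.89, 9.48, 9.21 and 10.14 with vehicle and 12.29, 12.13, 12.23, 12.28 and 12.74 with 20 µM. Treated arrays of Eno2, the enolase typical of neurons, lay above vehicle at both times and rose from a mean of 11.1 ± 0.16 to 12.3 ± 0.24 (SD, n = 5). That is a fold over vehicle of 2.21 at 24 h and 6.46 at 48 h, and an interaction of 1.55 ± 0.24 (SE, adjusted p = 2.22e-04). Vehicle replicate 5 was the lowest of its group at 24 h, and without it the interaction of Eno2 was 1.69. That was the largest value with any of the 20 arrays left out, and the smallest was 1.44. Slc16a3, which exports lactate, was at 0.13 at 24 h (adjusted p = 0.73) and 1.22 at 48 h, with an interaction of 1.09 ± 0.23 (SE, adjusted p = 0.00888). Adm, adrenomedullin, Pfkp, a phosphofructokinase, and Aldoa, an aldolase, had interactions of 0.51, 0.41 and 0.28. Relative to 0.8 µM rather than vehicle, Eno2 passed the threshold and Slc16a3 (0.76), Adm (0.25) and Pfkp (0.13) did not. The call of Adm (13 of the 20 arrays, adjusted p up to 0.0958) and Pfkp (12 of the 20 arrays, adjusted p up to 0.0897) was lost when single arrays were left out. Of the 21 genes, 0 were called lower and 1 higher against the 0.8 µM arrays, 0 and 2 without the variance trend, and 0 and 2 with centred arrays.

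At 24 h Sfn had log2 signals of 10.95, 10.79, 10.67, 10.65 and 10.31 on the vehicle arrays and 11.93, 11.57, 11.63, 11.70 and 11.51 on the treated arrays. At 48 h Sfn was at 10.57, 10.31, 10.25, 10.42 and 10.16 with vehicle and 12.60, 12.81, 12.92, 12.86 and 12.91 with 20 µM. Sfn, 14-3-3 sigma, is an adaptor protein that p53 induces. It showed the smallest SE among the 4 named genes above the dim threshold with the highest interactions. Treated arrays of Sfn lay above vehicle at both times, with no overlap between the treated times. Its interaction was 1.49 ± 0.15 (SE, adjusted p = 1.97e-07). Without vehicle replicate 5 of 24 h, the lowest of its group, it was 1.58. With each of the 20 arrays left out in turn, Sfn ranged from 1.415 to 1.576. It was the only called member of the p53 list, in which 1 of 15 measured genes was called higher and 0 lower (4 and 1 at an unadjusted p under 0.05), with a median interaction of 0.14. All genes together had 1.01% higher, 1.49% lower and 14.6% at an unadjusted p under 0.05 in limma. Other genes among the 12 highest were Lratd1 (0.99 ± 0.26), Oxct1, a ketone body enzyme (0.94 ± 0.22), Dnase2b, an acid DNase (0.86 ± 0.14), Dpp7, a dipeptidase of vesicles (0.80 ± 0.17), and Lcp1, an actin-bundling protein of blood cells (0.80 ± 0.20). Measured against the 0.8 µM arrays instead of vehicle, Sfn, Dnase2b and Lcp1 passed the threshold and Lratd1 (0.72), Oxct1 (0.83) and Dpp7 (0.37) did not. Without single arrays the call was lost for Lratd1 (13 of the 20 arrays, adjusted p up to 0.0922), Oxct1 (vehicle 24 h replicate 3, vehicle 48 h replicate 4, treated 24 h replicate 5 and treated 48 h replicate 5, adjusted p up to 0.0523) and Lcp1 (9 of the 20 arrays, adjusted p up to 0.0677).

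Lysosomal genes and subunits of the vacuolar proton pump, which acidifies lysosomes, were called in the higher direction for 5 and 4 genes. Of lysosomal proteins 5 of 36 measured genes were called higher and 0 lower (14 and 0 at an unadjusted p under 0.05), with a median interaction of 0.12, and of pump subunits 4 of 15 measured genes were called higher and 0 lower (10 and 0 at an unadjusted p under 0.05), with a median interaction of 0.22. Npc2, which carries cholesterol out of lysosomes, had effects of 0.31 at 24 h and 0.91 at 48 h and an interaction of 0.60 ± 0.083 (SE, adjusted p = 4.38e-05). The membrane protein Cd63, whose promoter is shown above, had effects of 0.37 at 24 h and 0.94 at 48 h and an interaction of 0.57 ± 0.12 (SE, adjusted p = 0.00585). The hydrolases Manba and Ctsa had interactions of 0.51 ± 0.11 and 0.39. At 24 h Gpnmb had log2 signals of 12.40, 12.53, 12.67, 12.43 and 12.29 on the vehicle arrays and 13.90, 13.72, 13.89, 13.97 and 13.91 on the treated arrays. At 48 h Gpnmb was at 12.54, 12.42, 12.53, 12.49 and 12.72 with vehicle and 14.47, 14.33, 14.41, 14.64 and 14.66 with 20 µM. Gpnmb, a glycoprotein of lysosomes, was separate between treated and vehicle at both times and higher in treated arrays at 48 h than at 24 h, with an interaction of 0.54 ± 0.14 (SE, adjusted p = 0.0451).

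The pump subunits called were Atp6v0b (0.53 ± 0.11), Atp6v1b2 (0.49 ± 0.10), Atp6v1d (0.45 ± 0.11) and Atp6v1f (0.33 ± 0.068). For 14 of the 15 subunits the interaction was above 0. Lamtor3, part of the complex that anchors nutrient sensing to lysosomes, had an interaction of 0.48 ± 0.072 (SE, adjusted p = 1.78e-04). Rragd, a GTPase of the same machinery, had effects of 1.54 at 24 h and 2.02 at 48 h, and its interaction of 0.48 ± 0.16 did not pass (adjusted p = 0.179). With 0.8 µM in place of vehicle, Npc2, Cd63, Manba, Atp6v1f and Lamtor3 passed the threshold and Gpnmb (0.19), Atp6v0b (0.27), Atp6v1b2 (0.34) and Atp6v1d (0.37) did not. Leaving out single arrays ended the call of Gpnmb (16 of the 20 arrays, adjusted p up to 0.107) and Atp6v1d (15 of the 20 arrays, adjusted p up to 0.0857). Of the 36 lysosomal genes, 0 were called lower and 3 higher against the 0.8 µM arrays, 0 and 4 without the variance trend, and 0 and 2 with centred arrays. Without vehicle replicate 5 of 24 h, 7 of them were called higher and 0 lower. Of the 15 subunits, 0 were called lower and 1 higher against the 0.8 µM arrays, 0 and 3 without the variance trend, and 0 and 3 with centred arrays.

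Cd68 is a glycoprotein of lysosomes and endosomes that is also used as a macrophage marker. By interaction it came next after Eno2, Sfn and Hamp among the named genes above the dim threshold. At 24 h Cd68 had log2 signals of 10.67, 10.61, 10.80, 10.71 and 10.41 on the vehicle arrays and 10.51, 10.88, 10.71, 10.96 and 10.64 on the treated arrays. At 48 h Cd68 was at 9.57, 9.74, 9.77, 9.83 and 10.10 with vehicle and 10.99, 11.27, 11.38, 11.12 and 11.45 with 20 µM. Treated and vehicle arrays overlapped at 24 h, after which vehicle fell by 0.84, treated rose by 0.50 and the groups were separate. The interaction was 1.34 ± 0.18 (SE, adjusted p = 2.62e-05). Cd68 was in the list of 11 Kupffer cell markers, where 1 gene was called higher and 1 lower, Lyz2, lysozyme (-0.39 ± 0.095 (SE, adjusted p = 0.0284)), and 9 of the 11 interactions were below 0. The summed signal of the 11 ran from 16410 to 18020 in vehicle and 14050 to 15270 in treated arrays at 24 h, and from 13640 to 16120 and 10380 to 12280 at 48 h. The complement genes C1qa, C1qb and C1qc and the receptor Csf1r had interactions of -0.12, -0.038, -0.29 and -0.61, with 0 of these 4 called. Of the 11, 9 were above the dim threshold and Adgre1 and Ptprc were dim. Their part in the result for Cd68 was not tested. In bulk RNA, fewer cells of a type and less RNA per cell cannot be told apart. The markers of stellate, endothelial, bile duct, lymphocyte and erythroid cells had 0 of 39 genes called (4 at an unadjusted p under 0.05). In the same order, 7 of 11, 4 of 9, 2 of 6, 3 of 9 and 3 of 4 were above the dim threshold. The rest were dim, so the count of 0 says little about those cells. The call of Lyz2 (11 of the 20 arrays, adjusted p up to 0.0677) was lost when single arrays were left out.

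In the lists of the integrated stress response and of NRF2 targets 3 genes were called, Ddit3, Ddit4 and Aox1, and Asns and Nqo1 were above vehicle at both times without a called interaction. At 24 h Ddit3 had log2 signals of 11.83, 11.92, 11.77, 11.92 and 11.46 on the vehicle arrays and 12.32, 12.27, 12.37, 12.50 and 12.29 on the treated arrays. At 48 h Ddit3 was at 11.51, 11.28, 11.70, 11.44 and 11.62 with vehicle and 12.73, 12.71, 12.82, 12.71 and 13.07 with 20 µM. Ddit3, the transcription factor CHOP, was higher in treated arrays at both times and rose again by 48 h, with an interaction of 0.73 ± 0.17 (SE, adjusted p = 0.0213). In the list of the integrated stress response 2 of 28 measured genes were called higher and 0 lower (6 and 2 at an unadjusted p under 0.05), with a median interaction of 0.031, the other called member being Ddit4 (0.43 ± 0.075), an inhibitor of mTOR. Over all genes 1.01% were called higher and 1.49% lower. Asns, which makes asparagine, was higher by 0.79 and 0.59 with an interaction of -0.19 ± 0.10 (SE, adjusted p = 0.513). At 24 h Nqo1 had log2 signals of 14.80, 14.74, 14.66, 14.71 and 14.84 on the vehicle arrays and 15.72, 15.70, 15.87, 15.74 and 15.89 on the treated arrays. At 48 h Nqo1 was at 14.55, 14.49, 14.38, 14.48 and 14.39 with vehicle and 15.50, 15.43, 15.50, 15.49 and 15.29 with 20 µM. Nqo1, a quinone reductase induced by NRF2, was separate at both times, 2.05-fold and 1.98-fold above vehicle, with an interaction of -0.048 ± 0.075 (SE, adjusted p = 0.903). Of NRF2 targets 1 of 23 measured genes was called lower and 0 higher (4 and 2 at an unadjusted p under 0.05), with a median interaction of -0.023, the called one being Aox1, an aldehyde oxidase (-0.32 ± 0.084). Taken against the 0.8 µM arrays, Ddit3 (0.62), Ddit4 (0.11) and Aox1 (-0.25) did not pass the threshold. Without single arrays the call was lost for Ddit3 (vehicle 48 h replicate 2 and treated 48 h replicate 5, adjusted p up to 0.054) and Aox1 (16 of the 20 arrays, adjusted p up to 0.104).

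Among lists with broad housekeeping roles, aminoacyl-tRNA synthetases had 0 of 19 genes called, the proteasome 0 of 28 and the respiratory chain 0 of 26. The list of cytoskeleton and dedifferentiation genes had 0 of 25. Over all genes 1.01% were called higher and 1.49% lower. At an unadjusted p under 0.05 limma gave 4, 4 and 4 of the housekeeping genes and 7 of the 25, against 14.6% of all genes. Without vehicle replicate 5 of 24 h, 1 synthetase was called higher and 1 lower, 1 proteasome gene lower and 2 cytoskeleton genes higher, and the respiratory chain again had 0. Tubb5, a beta tubulin, had effects of 0.68 at 24 h and 1.03 at 48 h and an interaction of 0.34 ± 0.094 (SE, adjusted p = 0.0591). Without that array it was 0.39 (adjusted p = 0.0176), and it also passed under 6 of the 14 other settings tried. These values are for the brightest probe set of Tubb5. The other of its 2 probe sets had an interaction of 0.468 and was called. Hepatocyte transcription factors had 1 of 22 called, Nr1i3, and ER chaperones 1 of 23, Pdia4, a disulfide isomerase (-0.34 ± 0.078). In the cytosolic heat shock list 1 of 13 was called, Cryab, a small chaperone (-0.76 ± 0.084 (SE, adjusted p = 1.34e-06)), for which the vehicle arrays rose by 0.86 and the treated arrays differed by 0.093 (adjusted p = 0.53). The growth hormone, IGF and insulin list had Igf1 lower (-0.27 ± 0.065) as 1 of 19, and the cell cycle list Pcna, the DNA clamp, higher (0.27 ± 0.07) as 1 of 27. In the fit with 0.8 µM as reference, Igf1 passed the threshold and Pdia4 (-0.21), Cryab (-0.33) and Pcna (0.15) did not. Leaving out single arrays ended the call of Igf1 (6 of the 20 arrays, adjusted p up to 0.0584) and Pcna (17 of the 20 arrays, adjusted p up to 0.101).

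**Figure D4:**
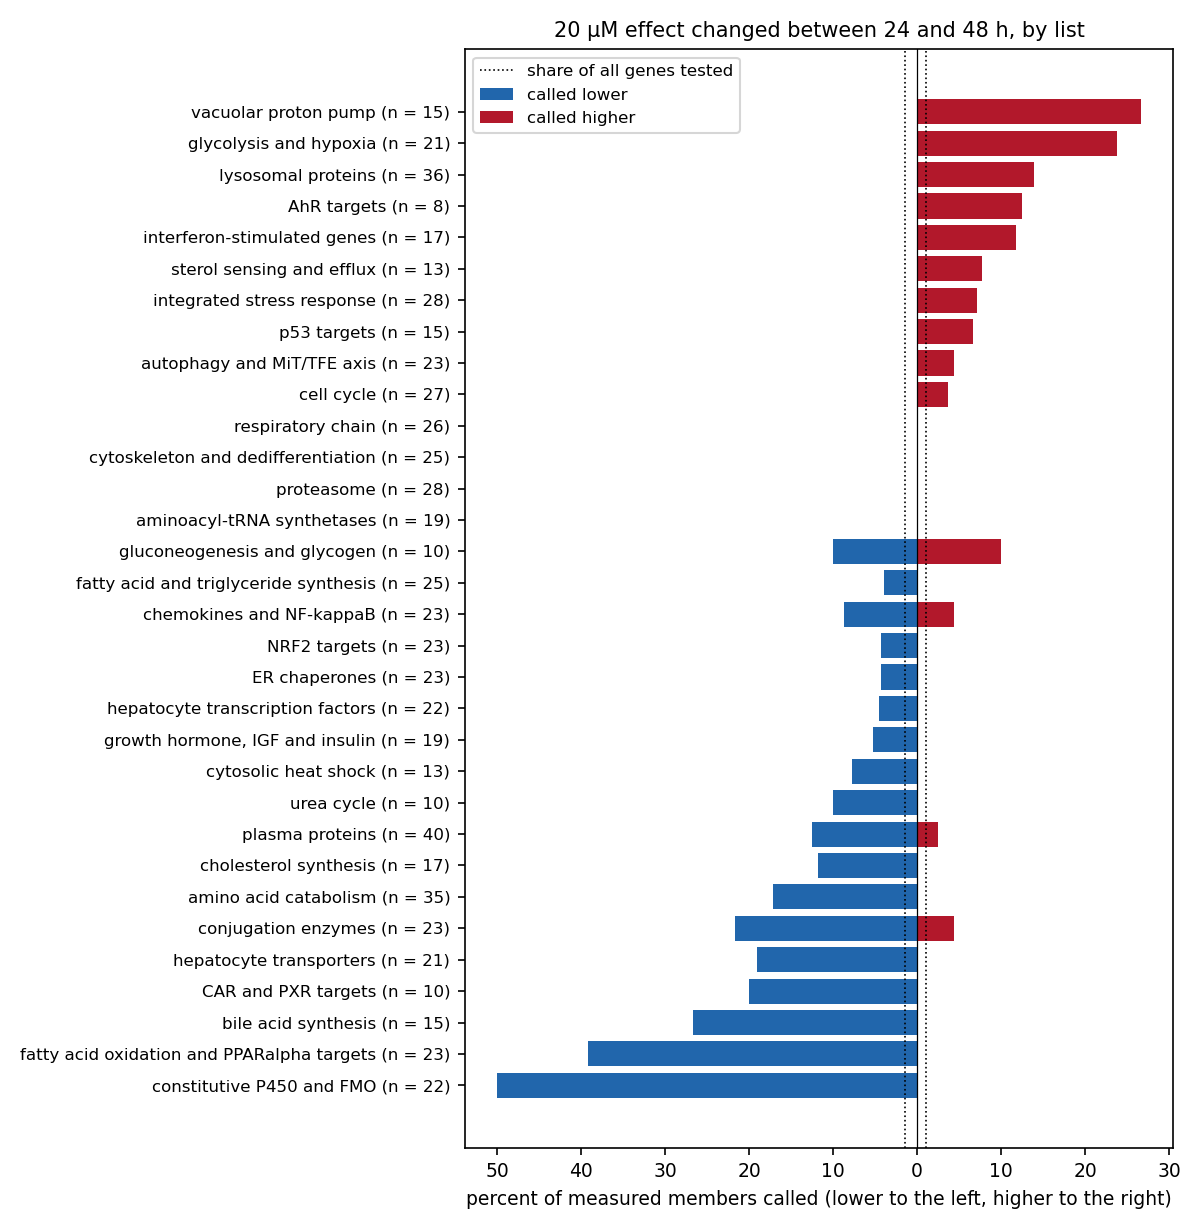
Percent of the measured genes of each of 32 lists whose interaction was called lower (blue, to the left) or higher (red, to the right), with the number measured in brackets. Dotted lines mark the shares over all genes, 1.49% lower and 1.01% higher, and constitutive P450 and FMO genes show the longest bar, 11 of 22.

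Some early effects had faded by 48 h. For 19 genes the interaction and the 24 h effect were called and the 48 h effect was under 0.5 of the 24 h effect in size. The 24 h effect could have either sign, and the 48 h effect could still be called. Il1r1, for example, went from 0.68 to 0.23 and was called at 48 h (limma, adjusted p = 0.0268). At 24 h Cxcl1 had log2 signals of 11.35, 11.06, 10.67, 10.44 and 10.96 on the vehicle arrays and 11.64, 11.50, 11.61, 11.52 and 11.71 on the treated arrays. At 48 h Cxcl1 was at 10.09, 9.97, 10.44, 10.21 and 9.98 with vehicle and 9.79, 10.07, 9.91, 9.35 and 9.99 with 20 µM. Cxcl1, a chemokine for neutrophils, was higher in treated arrays at 24 h (0.70), fell in both kinds of culture and overlapped with vehicle at 48 h (-0.32, adjusted p = 0.109). The interaction was -1.01 ± 0.19 (SE, adjusted p = 0.00221). At 24 h Elovl6 had log2 signals of 10.60, 10.87, 10.16, 10.32 and 10.69 on the vehicle arrays and 11.44, 10.996, 10.97, 11.32 and 11.38 on the treated arrays. At 48 h Elovl6 was at 11.55, 11.61, 10.88, 10.98 and 10.72 with vehicle and 10.95, 10.80, 10.75, 11.17 and 10.77 with 20 µM. Elovl6, a fatty acid elongase, had treated arrays above vehicle at 24 h, and vehicle arrays then rose by 0.62 and overlapped with treated ones. Its interaction was -0.95 ± 0.23 (SE, adjusted p = 0.0252).

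Effects also shrank for the lipase Abhd2 (0.80 then 0.18), the noncoding RNA Snhg4 (0.54 then -0.027), the transcriptional repressor Tgif1 (0.47 then -0.072) and the sterol synthesis scaffold Erg28 (0.39 then -0.073). Their interactions were -0.62 ± 0.12, -0.57 ± 0.12, -0.54 ± 0.12 and -0.47 ± 0.061. From 24 to 48 h their treated arrays differed by -0.69, -0.29, 0.018 and -0.066, and their vehicle arrays by -0.067, 0.28, 0.56 and 0.40. So the change lay in treated arrays for Abhd2, in both for Snhg4, and in vehicle for Tgif1 and Erg28. Bbs7 (-0.54 ± 0.14) and Tbl1xr1 (-0.53 ± 0.089) were also among the 8 largest, and the probe sets of Tbl1xr1 ranged from -0.75 to 1.16 in interaction. In the list of chemokines and NF-kappaB genes 2 of 23 measured genes were called lower and 1 higher (3 and 3 at an unadjusted p under 0.05), with a median interaction of 0.12. Its interleukin-1 receptors parted at their brightest probe sets. The decoy receptor Il1r2 had an interaction of 0.79 ± 0.19 (SE, adjusted p = 0.0255) and the signalling receptor Il1r1 one of -0.45 ± 0.10 (SE, adjusted p = 0.0196). Both were higher with 20 µM at both times. The 3 probe sets of Il1r1 ranged from -0.446 to -0.014 in interaction, and 1 of them was called. Of interferon-stimulated genes 2 of 17 measured genes were called higher and 0 lower (5 and 0 at an unadjusted p under 0.05), with a median interaction of 0.17, namely Psmb9 (0.57 ± 0.13) and Stat2 (0.42 ± 0.11), which was at 0.39 (adjusted p = 0.0711) without vehicle replicate 5 of 24 h. Relative to 0.8 µM rather than vehicle, Cxcl1 (-0.53), Elovl6 (-0.56), Abhd2 (-0.41), Snhg4 (-0.29), Tgif1 (-0.28), Bbs7 (-0.39), Tbl1xr1 (-0.35), Erg28 (-0.24), Il1r2 (0.20), Il1r1 (-0.36), Psmb9 (0.45) and Stat2 (0.19) did not pass the threshold. The call of Elovl6 (7 of the 20 arrays, adjusted p up to 0.063), Bbs7 (16 of the 20 arrays, adjusted p up to 0.0861), Il1r2 (6 of the 20 arrays, adjusted p up to 0.0629), Il1r1 (treated 48 h replicate 5, adjusted p up to 0.05) and Stat2 (14 of the 20 arrays, adjusted p up to 0.102) was lost when single arrays were left out.

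A pair of cholesterol synthesis enzymes was called lower. Of this list 2 of 17 measured genes were called lower and 0 higher (10 and 0 at an unadjusted p under 0.05), with a median interaction of -0.27, and 15 of the 17 interactions were below 0. Ebp, a sterol isomerase, rose at 24 h (0.32) and was at -0.086 at 48 h (adjusted p = 0.399), with an interaction of -0.41 ± 0.083 (SE, adjusted p = 0.00629). Fdft1, squalene synthase, had an interaction of -0.39 ± 0.098 (SE, adjusted p = 0.0327). Cyp51, lanosterol demethylase, rose at both times (1.00 and 0.73), and its interaction of -0.27 ± 0.13 did not pass (adjusted p = 0.416). At 24 h Dhcr7 had log2 signals of 13.38, 13.03, 13.16, 13.03 and 13.77 on the vehicle arrays and 12.82, 13.19, 12.82, 13.11 and 12.83 on the treated arrays. At 48 h Dhcr7 was at 13.73, 14.01, 13.65, 13.61 and 13.70 with vehicle and 12.84, 12.87, 12.94, 13.28 and 12.92 with 20 µM. Dhcr7, the last enzyme of the pathway, overlapped at 24 h and was lower in every treated array at 48 h, with an interaction of -0.45 ± 0.20 (SE, adjusted p = 0.38). Vehicle replicate 5 of 24 h was again nearer to the 48 h vehicle arrays in Dhcr7. Without it 5 of the 17 genes were called lower, and without the variance trend 1. Measured against the 0.8 µM arrays instead of vehicle, Ebp (-0.18) and Fdft1 (-0.17) did not pass the threshold. Without single arrays the call was lost for Fdft1 (12 of the 20 arrays, adjusted p up to 0.0792).

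A sign change with both effects called was found for 5 genes above the dim threshold: Tesc, Naxd, Myo1d, Optn and Fuca1. All 5 were lower at 24 h and higher at 48 h. At 24 h Tesc had log2 signals of 8.61, 8.62, 8.67, 8.64 and 8.16 on the vehicle arrays and 8.12, 8.31, 7.82, 7.70 and 7.87 on the treated arrays. At 48 h Tesc was at 8.12, 8.81, 8.81, 8.70 and 8.81 with vehicle and 9.73, 9.13, 8.93, 9.01 and 9.17 with 20 µM. Tesc, tescalcin, a calcium-binding protein, had effects of -0.58 at 24 h and 0.54 at 48 h and an interaction of 1.12 ± 0.24 (SE, adjusted p = 0.0108), with overlap of the groups at 24 h only. Without vehicle replicate 5 of 24 h, the lowest of its group, the interaction was 1.21. With each of the 20 arrays left out in turn, it ranged from 0.984 to 1.213. At 24 h Naxd had log2 signals of 12.44, 12.57, 12.50, 12.50 and 12.32 on the vehicle arrays and 12.28, 12.29, 12.17, 12.18 and 12.34 on the treated arrays. At 48 h Naxd was at 11.97, 11.76, 11.86, 11.95 and 11.97 with vehicle and 12.08, 12.21, 12.13, 12.31 and 12.24 with 20 µM. Naxd, which repairs hydrated NADH, had effects of -0.22 at 24 h and 0.29 at 48 h: the vehicle arrays fell by 0.57 and the treated arrays differed by -0.058 (adjusted p = 0.794). Its interaction was 0.51 ± 0.093 (SE, adjusted p = 0.00197). Myo1d, a myosin (-0.20 then 0.23), Optn, an autophagy receptor (-0.19 then 0.13), and Fuca1, a lysosomal fucosidase (-0.14 then 0.11), had interactions of 0.43 ± 0.083, 0.33 ± 0.067 and 0.25 ± 0.052. With 0.8 µM in place of vehicle, Tesc (0.90), Naxd (0.11), Myo1d (0.23), Optn (0.17) and Fuca1 (0.019) did not pass the threshold.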

How the data were processed

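RNA from 30 wells was measured on 30 rat oligonucleotide arrays, 20 of which form the comparison. Per the submitters' processing notes the signals are from MAS5, and the authors deposited linear intensity values per probe set. On every array these average 1500.0 between the 2nd and 98th percentiles, so a change of total RNA per cell is not seen. The table held 31099 probe sets, of which 57 controls were left out. Signals were floored at 16 (3.935% of values lay below) and log2 transformed with no further normalization.

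Names came from the platform annotation: 20826 probe sets had 1 symbol, 436 several and 9780 were not listed, and 20758 matched a current gene table by Entrez identifier. Each of 14217 genes stands for its brightest probe set, by mean log2 signal in the study. Of the 488 called probe sets, 83 had no single symbol.

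limma 3.58.1 in R 4.3.3 fitted 1 mean per group over all 30 arrays, with eBayes and a variance trend, and p-values were adjusted by Benjamini-Hochberg over 31042 probe sets. A result is called at an adjusted p under 0.05. Its number of arrays limits the precision, and the median SE of an interaction over all genes was 0.21.

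The rule names the 12 highest and 12 lowest called genes above the dim threshold, up to 4 called members of each of 32 gene lists and 7 marker lists, up to 6 genes of changed sign, up to 8 whose 24 h effect faded, and a panel of 19. Genes known by a locus number are not named. The members, lists and rule were chosen with earlier results of these data known. The promoter motifs were chosen after values were seen. Alternatives covered the floor, filters on dim probe sets, scaling, the fit, the reference group, runs of array numbers and each array left out.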

Additional observations from a re-analysis of the deposited data

Results flagged for a closer look

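Single arrays lay apart from their group in 10 of 112 groups of 5 arrays checked over 28 genes, where chance alone gives about 1 in 20. Among treated arrays at 48 h these were replicate 5 in Eno2 (12.743, above the rest) and in Otc (7.073, below), and replicate 4 in Cyp2c12 (5.044, below) and in Dhcr7 (13.28, above). Among vehicle arrays at 24 h, replicate 5 stood apart in Cyp7a1 (11.735, above) and Tesc (8.159, below). In the 48 h vehicle group they were replicate 5 in Olr59 (9.413, below), replicate 1 in Tesc (8.118, below), replicate 4 in Cyp8b1 (13.793, above) and replicate 2 in Cps1 (16.059, below). All of these are log2 signals.

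The effect of 20 µM had opposite signs at 24 and 48 h, with both effects and their difference past the threshold in limma, for Tesc (interaction 1.118), Naxd (0.51), Myo1d (0.43), Optn (0.325) and Fuca1 (0.245). The probe sets of Naxd and Myo1d did not pass when averaged.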

How the results depend on the processing

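As deposited, 191 probe sets were higher and 297 lower. Higher and lower counts were 72 and 180 with arrays centred on the median, 80 and 159 without the variance trend, 38 and 113 against the 0.8 µM arrays, 73 and 143 at an adjusted p under 0.01, and 18 and 49 for interactions of at least 1. Under the other 10 alternatives they stayed within 1.5 times of the values as deposited, from 162 to 249 higher and from 263 to 364 lower. Leaving out single arrays gave 122 to 252 higher and 221 to 404 lower. The lowest counts of higher probe sets came without vehicle replicate 3 of 24 h (122), treated replicate 5 of 48 h (123) and vehicle replicate 2 of 24 h (127), and both highest counts without vehicle replicate 5 of 24 h. The causes were not tested, except that the last pair of thresholds admits fewer probe sets by construction.

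Of the 86 called genes named by the rule, 61 stayed called without any single array and 13 were lost without 10 or more of the 20. Other settings ended 60 of the calls against 0.8 µM (1 of them, C9, turned), 29 without the trend, 20 with centred arrays, 13 with 20 arrays in the fit, 10 with the mean of the probe sets of a gene, 6 and 5 with higher floors, and 1 or 0 elsewhere. The 0.8 µM reference is a treated group and so a different comparison, not a choice of processing. Omd, Sult1e1, C9 and Cryab did not pass against it and had called lower interactions at 0.8 µM. Cyp3a18 had one too and passed. The 10 lost with the mean of probe sets were Naxd, Myo1d, Bbs7, Tbl1xr1, Gldc, Fdft1, Atp6v0b, Atp6v1b2, Il1r1 and Stat2. Of the genes not called, Cyp7a1 passed in 5 of 14 settings and Tubb5 in 6, both of them with either filter on dim probe sets, 20 arrays in the fit, array weights and the mean of probe sets, and Tubb5 with quantile normalization. Cyp8b1 passed in 1, against 0.8 µM. Values near 0 changed sign: Cps1 (-0.011 centred, -0.073 quantile, -0.005 against 0.8 µM, -0.128 as the mean of its probe sets, -0.058 to 0.058 without single arrays) and Alb (-0.001 centred, -0.042 quantile, -0.012 with array weights, -0.135 against 0.8 µM, -0.072 to 0.116 without single arrays). Against 0.8 µM Cyp51 (0.087), Asns (0.22) and C9 (0.154) also changed sign. The labels give no replicate numbers that tie wells across groups, but titles carry array numbers. With runs of consecutive array numbers as a block, 214 probe sets were higher and 321 lower.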
